A study of Equus caballus with 45 samples.

Results

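FOXP3, the gene of the forkhead transcription factor that defines regulatory T cells, was followed through the RNA sequencing counts of equine macrophages and set beside its levels in synoviocytes, chondrocytes and mesenchymal stromal cells (MSC). It is 1 of 20881 protein coding genes in the count tables and 1 of 4 members of the FOXP family. It was chosen by its counts in macrophages, which were lower with the conditioned medium (CM) of STING-activated MSC than with the CM of resting or TLR-activated MSC. Its values in those 2 comparisons are therefore given as a description, with no test. Its comparison between TLR-MSC-CM and resting MSC-CM, its levels in the other cells and the behaviour of other genes were not used in that choice. Comparisons of FOXP3 between TLR-MSC-CM and resting MSC-CM, or between cell types, still include macrophage libraries that the choice used.

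FOXP3 protein binds DNA through its forkhead domain and holds T cells in a suppressive state, together with partners such as RUNX1, GATA3, NFAT proteins and histone modifying enzymes. Its transcription is driven by T cell receptor signals, by IL-2 acting through STAT5 and by TGF-β acting through SMAD proteins. Activated conventional T cells of several species can also express it for a short time, and FOXP3 is not among the genes that define macrophages.

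The cells came from healthy horses. Macrophages were derived from blood mononuclear cells of 1 horse over 5 days in M-CSF at 30 ng/mL. The libraries of a condition thus share their macrophage donor. They were taken to differ in the MSC donor of the CM, by the names PC, ORC and AG1 in their labels. The labels do not say what these names stand for, and titles of libraries without CM carry ORC or PC too. Conditions were no addition (1 library), IL-1β plus TNF-α only (1 library), and IL-1β plus TNF-α followed by 1 of 3 media, namely STING-MSC-CM, TLR-MSC-CM and resting MSC-CM (3 libraries each). TLR-MSC-CM came from MSC given the TLR3 agonist poly I:C, and STING-MSC-CM from MSC given the STING agonist 2′3′-cGAMP, for 2 h. By the labels, agonist and macrophage cytokine concentrations were each 10 ng/mL, whereas the methods state others. CM stayed on the cells for 24 h, after which they were washed and cultured for another 24 h. Synoviocytes and chondrocytes went through 5 conditions of the same kinds. Their labels give cytokines at 20 ng/mL for synoviocytes and no cytokine concentration for chondrocytes. MSC libraries were untreated, given either agonist, or labelled CpG (3 donors each, labelled PC, 99 and 92). P-values over 3 libraries measure the spread between CM of 3 MSC donors on cells of 1 horse, and not the spread between horses as macrophage donors.

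Over all 45 libraries, 23525704 to 54103873 reads were counted on genes, and the 11 macrophage libraries held 23525704 to 40403096. A count of 3, taken as the floor, equals 0.0743 to 0.128 CPM (counts scaled to a library total of 1000000) in macrophage libraries. All 19 macrophage markers in the table were detected in every macrophage library. T cell RNA was present as well: CD3D, CD3E and CD3G, the chains of the T cell receptor's signalling complex, summed to 138 to 275 CPM. The same sum was 0 in all 11 chondrocyte libraries and at most 0.0359 CPM in synoviocytes and 0.0599 CPM in MSC. One macrophage library, that with TLR-MSC-CM of donor AG1, is described separately. It had the highest level among the 11 libraries for 15 of 21 T cell markers and 8 of 9 natural killer cell markers, and the lowest for 10 of 19 macrophage markers. It was also the highest for 13 of 26 regulatory T cell genes, 15 of 33 genes upstream of FOXP3 and 11 of 18 genes of FOXP3 protein partners. For B cell markers it was the highest for 1 of 9. The share over all genes was not computed, so these counts cannot tell a difference in the listed genes from one in genes at large. The library also had the highest normalization factor (TMM) of the macrophage libraries with CM, at 1.07. Values without it are given for FOXP3, the regulatory T cell gene medians, the T cell marker counts and the genes that passed with the MSC donor as a block.

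FOXP3 was low in macrophages with STING-MSC-CM and higher with resting MSC-CM or TLR-MSC-CM. With STING-MSC-CM, FOXP3 was at 7.53 CPM for donor PC (224 counts), 8.44 CPM for ORC (239 counts) and 5.69 CPM for AG1 (151 counts). With resting MSC-CM it was at 14.2 CPM for PC (535 counts), 20.4 CPM for ORC (479 counts) and 13.7 CPM for AG1 (555 counts). With TLR-MSC-CM it was at 20.5 CPM for PC (627 counts), 17.6 CPM for ORC (694 counts) and 25.5 CPM for AG1 (966 counts). Each of the 3 libraries with STING-MSC-CM lay below each of the 6 with the other CM, as the choice of the gene required.

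The group means were 7.22 ± 1.40 CPM with STING-MSC-CM, 16.1 ± 3.69 CPM with resting MSC-CM and 21.2 ± 4.01 CPM with TLR-MSC-CM (SD, n = 3 each). FOXP3 with STING-MSC-CM was thus 2.23-fold lower than with resting MSC-CM (log2 fold change −1.17, SE 0.21) and 2.93-fold lower than with TLR-MSC-CM (−1.50, SE 0.21). Both comparisons use the same STING-MSC-CM libraries. Within donors, the level with STING-MSC-CM was 53.0% of that with resting MSC-CM for PC, 41.4% for ORC and 41.4% for AG1. Against TLR-MSC-CM it was 36.8% for PC, 48.0% for ORC and 22.3% for AG1. The donor with the largest difference, AG1, had both the lowest STING-MSC-CM value and the highest TLR-MSC-CM value. Without the TLR-MSC-CM library of AG1, the log2 fold change of STING-MSC-CM against TLR-MSC-CM was −1.37, within the range of −1.64 to −1.34 seen when any 1 library was left out.

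Among 11558 genes with a mean of at least 1 CPM in macrophages, 13 had a lower log2 fold change than FOXP3 between STING-MSC-CM and resting MSC-CM, and 2 had a lower one between STING-MSC-CM and TLR-MSC-CM. These positions come from the comparisons that chose the gene.

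**Figure D1:**
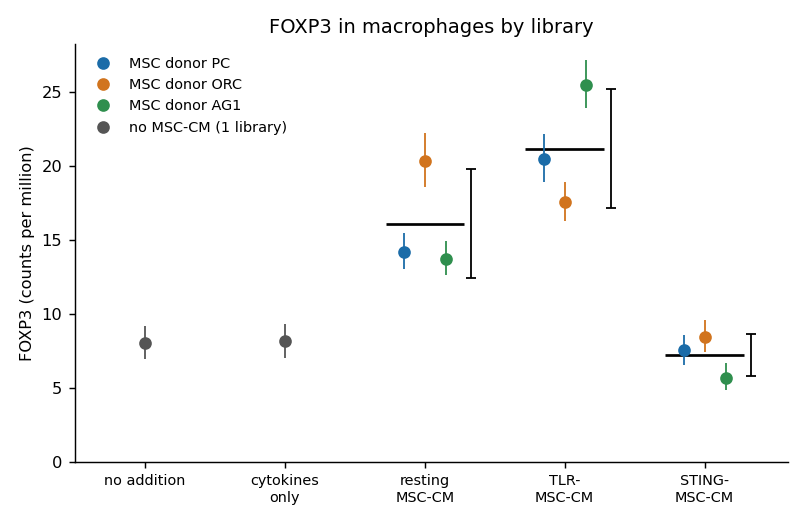
FOXP3 level in CPM (y axis) in each of the 11 macrophage libraries by condition (x axis), coloured by MSC donor, with vertical lines through points for the exact 95% Poisson interval of the count, horizontal bars for means and capped bars for ± 1 SD of the 3 libraries. The 3 libraries with STING-MSC-CM sit between 5.69 and 8.44 CPM, beside the libraries without CM at 8.02 and 8.14 CPM and below those with resting or TLR-MSC-CM at 13.7 to 25.5 CPM.

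The 2 macrophage libraries without CM lay at the level of STING-MSC-CM. FOXP3 was at 8.02 CPM with no addition (208 counts, 95% interval 6.97 to 9.19) and at 8.14 CPM with cytokines only (199 counts, 7.04 to 9.35). The intervals are exact Poisson intervals and cover counting error only, since reads without molecular identifiers are not independent molecules. Both values fell inside the 5.69 to 8.44 CPM range of STING-MSC-CM and below all 6 libraries with resting or TLR-MSC-CM. With 1 library each, these conditions have no replicate error and were not tested.

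TLR-MSC-CM and resting MSC-CM, whose comparison was not used to choose FOXP3, overlapped. The resting library of ORC, at 20.4 CPM, was above the TLR library of ORC, at 17.6 CPM, and close to that of PC, at 20.5 CPM. FOXP3 was higher with TLR-MSC-CM in 2 of 3 donors, by 1.31-fold between means (log2 fold change 0.34, SE 0.20). This difference did not pass edgeR's quasi-likelihood test (Benjamini-Hochberg adjusted p = 0.9985) or a two-sided exact permutation test (p = 0.2, adjusted over 3 tests 0.2, with 0.1 the smallest p that 3 against 3 allow). Without the TLR-MSC-CM library of AG1 the log2 fold change was 0.21.

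FOXP3 RNA was largely a macrophage culture signal in this series. In resting MSC-CM, it was at 16.1 ± 3.69 CPM in macrophages against 0.293 ± 0.179 CPM in synoviocytes and 0.281 ± 0.152 CPM in chondrocytes (SD, n = 3 each), which is 54.9-fold and 57.4-fold higher. By edgeR's quasi-likelihood test the differences were 5.77 on the log2 scale (SE 0.41, adjusted p = 3.98e-07) and 5.81 (SE 0.41, adjusted p = 3.65e-07). All 3 macrophage libraries were above all 3 of the other cell type in both comparisons, and the exact permutation p was 0.1 in each (adjusted 0.15), the smallest possible. The macrophage side of these tests is the 3 resting MSC-CM libraries that the choice of the gene used. A gene chosen by its macrophage counts has to be counted there, so these p-values are no independent support for the difference. By the labels, cytokine doses also differed between macrophages and synoviocytes. Differences of this kind between cell types were common, with 71.6% of genes tested called against synoviocytes and 71.5% against chondrocytes.

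Ordered by mean, the 5 macrophage conditions took the first 5 places of 19. TLR-MSC-CM and resting MSC-CM came first and overlapped, followed after a gap by cytokines only, no addition and STING-MSC-CM, which did not differ beyond the spread of the STING-MSC-CM libraries. The lowest macrophage library, at 5.69 CPM, was above the highest of the 34 other libraries, at 0.747 CPM. Below the macrophages, the 14 conditions had means of 0.158 to 0.632 CPM, and libraries of neighbouring conditions mixed wherever both had replicates. Their counts per library ran from 3 to 27 in synoviocytes, 1 to 25 in chondrocytes and 8 to 30 in MSC. The highest, chondrocytes with cytokines only at 0.632 CPM, rested on 25 counts in 1 library.

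**Figure D2:**
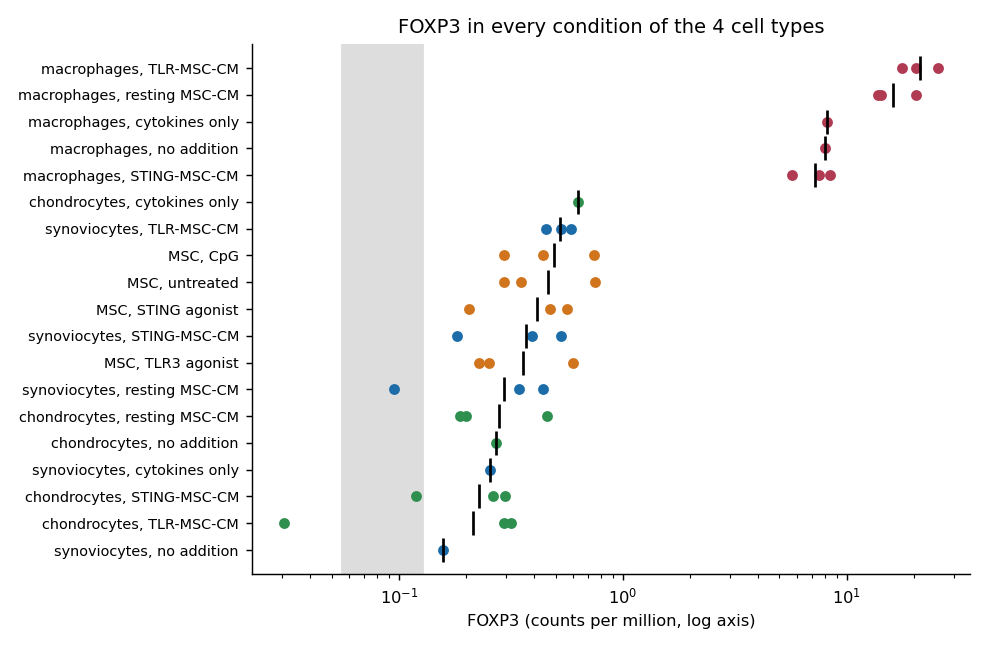
FOXP3 level in CPM on a log axis (x axis) in each of the 45 libraries, by cell type and condition in order of mean (y axis); points are libraries, coloured by cell type, vertical ticks are means, and the grey band is the range of the 3-count floor (0.0554 to 0.128 CPM). Macrophage libraries lie between 5.69 and 25.5 CPM and all others between 0.0307 and 0.747 CPM, with 3 libraries in or below the band.

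No comparison of conditions in the other cells passed the test for FOXP3 (edgeR's quasi-likelihood adjusted p = 0.575 to 1 over 10 comparisons, in each of which 0% of the genes tested were called). In synoviocytes, FOXP3 was at 0.0948 to 0.441 CPM with resting MSC-CM, 0.454 to 0.588 CPM with TLR-MSC-CM and 0.181 to 0.527 CPM with STING-MSC-CM. The TLR-MSC-CM libraries lay above the resting ones without overlap (log2 fold change 0.87, SE 0.56), on 3 to 27 counts a library. STING-MSC-CM against resting gave 0.28 (SE 0.59), and STING-MSC-CM against TLR-MSC-CM −0.59 (SE 0.55). In chondrocytes the corresponding values were −0.37 (SE 0.76), −0.35 (SE 0.78) and 0.02 (SE 0.81). In MSC themselves, FOXP3 was at 0.464 ± 0.246 CPM untreated, 0.359 ± 0.208 CPM after the TLR3 agonist, 0.412 ± 0.185 CPM after the STING agonist and 0.492 ± 0.229 CPM under the label CpG (SD, n = 3 each). With standard errors of 0.55 to 0.81 in synoviocytes and chondrocytes, differences as large as that in macrophages could have been missed in these cells. The power to detect them there or in MSC was not computed.

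The FOXP3 gene has close neighbours on the X chromosome. In the RefSeq gene table, which is of another horse assembly than the counts, CCDC22 lies next to FOXP3 with a gap of 15 bases and PPP1R3F lies on the other side at 3132 bases. CCDC22 encodes a subunit of the COMMD-containing complex that sorts membrane proteins, and PPP1R3F a regulatory subunit of protein phosphatase 1. The strand setting of the read counting is not given in the sources used here. Reads that run from one gene into the other could thus not be told apart, and the counts were compared directly.

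CCDC22 varied little. It was at 32.3 ± 2.02 CPM with resting MSC-CM, 32.3 ± 0.921 CPM with TLR-MSC-CM and 32.7 ± 1.90 CPM with STING-MSC-CM (SD, n = 3 each), with a log2 fold change of 0.00 (SE 0.09) for STING-MSC-CM against resting. FOXP3 counts per 100 CCDC22 counts were 16.7 to 25.1 with STING-MSC-CM, 40.2 to 62.4 with resting MSC-CM and 56.1 to 78.2 with TLR-MSC-CM. Without CM they were 21.8 (no addition) and 23.3 (cytokines only). In the other cell types the ratio was 0.211 to 4.42 per 100, although CCDC22 was expressed there, at 14.1 ± 0.704 CPM in synoviocytes and 14.8 ± 1.97 CPM in chondrocytes with resting MSC-CM. FOXP3 counts per PPP1R3F count gave the same order of macrophage groups, at 2.91 ± 1.18 with STING-MSC-CM, 5.78 ± 1.49 with resting MSC-CM and 8.76 ± 0.709 with TLR-MSC-CM. All these ratios have as numerator the FOXP3 count by which the gene was chosen, so their order follows in part from that choice. The other neighbours PRICKLE3, SYP and CACNA1F, like CCDC22 and PPP1R3F, had no adjusted p-value under 0.05 in macrophages. For STING-MSC-CM against resting, PRICKLE3 was at −0.20 (SE 0.17) on the log2 scale, SYP at 0.07 (SE 0.34) and CACNA1F at −1.96 (SE 1.23), the last on 0 to 0.298 CPM.

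Among the other FOXP genes, FOXP1, which acts in B cell, T cell and macrophage differentiation, was at 29.2 ± 0.583 CPM with resting MSC-CM, 31.0 ± 1.54 CPM with TLR-MSC-CM and 26.9 ± 2.29 CPM with STING-MSC-CM. Its log2 fold change was −0.13 (SE 0.10) for STING-MSC-CM against resting and −0.16 (SE 0.10) against TLR-MSC-CM. FOXP4 was at 5.34 ± 1.65, 9.15 ± 5.56 and 5.67 ± 1.93 CPM in the same order, and its highest value, 15.4 CPM, was in the TLR-MSC-CM library of AG1. FOXP2, known for its role in the brain, had 0 counts in 10 of 11 macrophage libraries and 1 in the other. FOXP1 and FOXP4 were higher in the stromal cells than in macrophages (88.9 ± 3.73 and 36.1 ± 6.29 CPM in synoviocytes with resting MSC-CM), the opposite order to FOXP3.

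No gene had an adjusted p-value under 0.05 in edgeR's quasi-likelihood test in any of the 3 macrophage comparisons (0% of 15052 genes tested). At an unadjusted p under 0.05 there were 717 genes for STING-MSC-CM against resting MSC-CM (4.76%), 994 for STING-MSC-CM against TLR-MSC-CM (6.6%) and 320 for TLR-MSC-CM against resting MSC-CM (2.13%). Libraries with CM of the same MSC donor deviated together, and with the donor as a block 80 genes (0.531%), 336 genes (2.23%) and 0 genes passed an adjusted p of 0.05. Without the TLR-MSC-CM library of AG1, the block gave 166 genes (1.12%) in the second comparison. DESeq2 without the block called 5 genes (0.0332%), 33 genes (0.219%) and 0 genes.

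Genes that mark regulatory T cells or serve their function were examined next. Of 26 such genes, 0 had an adjusted p under 0.05 in the unblocked test. At an unadjusted p under 0.05, 1 of 26 was lower with STING-MSC-CM than with resting MSC-CM (2.47% of all genes tested were). Against TLR-MSC-CM, 5 were lower (3.82% of all genes tested were) and 1 was higher. The median log2 fold change of the 26 genes was −0.11 against resting (all genes −0.01) and −0.27 against TLR-MSC-CM (all genes −0.02). Without the TLR-MSC-CM library of AG1 the latter median was −0.10. TLR-MSC-CM against resting had 1 gene higher at an unadjusted p under 0.05 (2.13% of all genes tested had such a p) and a median of 0.17, or 0.01 without the AG1 library.

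CTLA4, the inhibitory receptor that competes with CD28 and a direct target of FOXP3, had the smallest p of the list in both comparisons. It was at 6.05, 5.19 and 6.14 CPM with STING-MSC-CM of PC, ORC and AG1, against 9.62, 6.89 and 8.86 CPM with resting MSC-CM and 10.2, 7.21 and 10.6 CPM with TLR-MSC-CM. All 3 libraries with STING-MSC-CM were below the 6 others, though the library with cytokines only was lower still, at 5.15 CPM, and that with no addition was at 10.6 CPM. The log2 fold change was −0.56 (SE 0.17, adjusted p = 0.907) against resting and −0.64 (SE 0.17, adjusted p = 0.704) against TLR-MSC-CM. With the MSC donor as a block, the second passed (−0.63, edgeR adjusted p = 0.0288, or 0.0819 without the TLR-MSC-CM library of AG1).

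The chemokine receptors CCR8 and CCR4, found on regulatory and type 2 helper T cells, differed by −0.97 (SE 0.33) and −0.78 (SE 0.27) on the log2 scale between STING-MSC-CM and TLR-MSC-CM, at levels of 0.535 to 1.93 and 1.58 to 4.47 CPM over the 9 libraries with CM. EBI3, a subunit of IL-27 and IL-35 that myeloid cells also make, was higher, by 0.47 (SE 0.14) on the log2 scale. None of these 3 passed the adjusted test with or without the block. With the block, IRF4, a transcription factor of activated lymphocytes, was lower (−0.52, edgeR adjusted p = 0.0437) and ENTPD1, the ectonucleotidase CD39 that macrophages also carry, was higher (0.61, edgeR adjusted p = 0.0427) with STING-MSC-CM than with TLR-MSC-CM. Without the AG1 library with TLR-MSC-CM, the edgeR adjusted p-values with the block were 0.106 for IRF4 and 0.0235 for ENTPD1. IL2RA, the IL-2 receptor chain CD25 by which regulatory T cells are commonly sorted, is named outside the rule, after its values were seen. It was at 68.9 to 94.9 CPM with STING-MSC-CM against 68.5 to 91.7 CPM with resting MSC-CM, with a log2 fold change of 0.00 (SE 0.22).

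**Figure D3:**
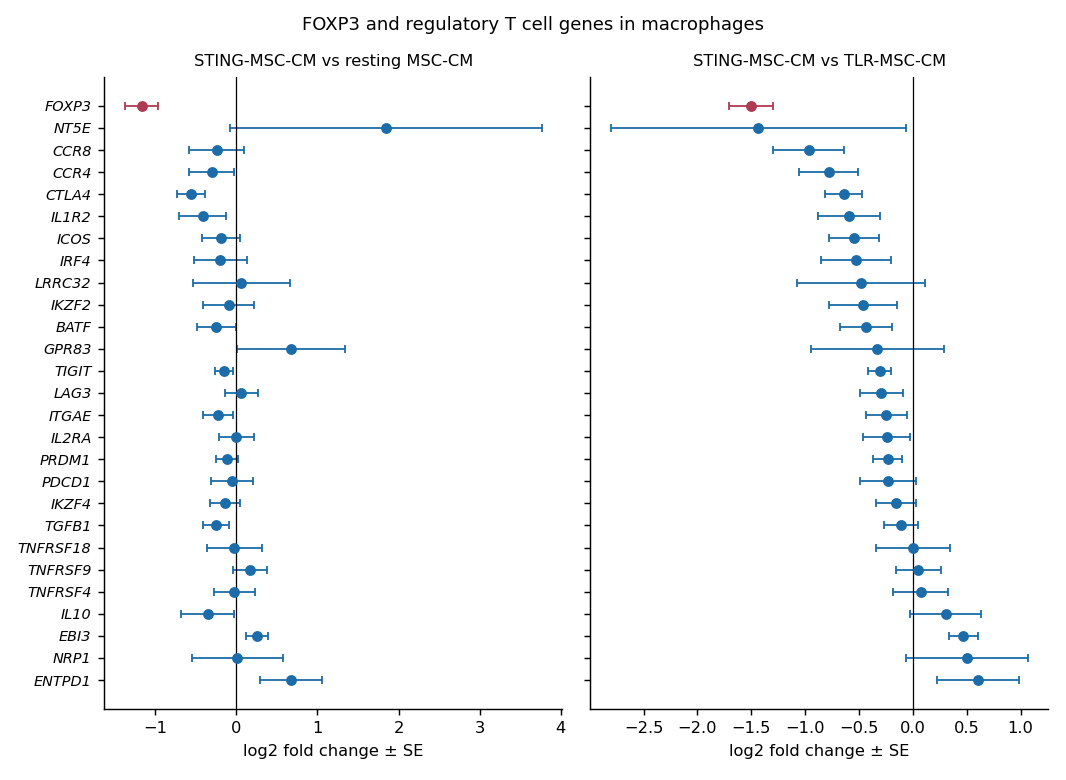
Log2 fold change ± SE (x axes) of FOXP3 (red) and 26 regulatory T cell genes (blue, y axis) in macrophages, for STING-MSC-CM against resting MSC-CM (left) and against TLR-MSC-CM (right), genes below FOXP3 being in order of the right panel. FOXP3, chosen by these comparisons, stands at −1.17 and −1.50, and the medians of the 26 genes are −0.11 and −0.27.

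The genes that act upstream of FOXP3 had medians close to that of all genes. Of 33 written (IL-2 and TGF-β receptors, STAT, SMAD, NFAT, NF-κB, FOXO, NR4A and DNA methylation genes), 0 passed the adjusted unblocked test. The median log2 fold change was 0.04 for STING-MSC-CM against resting MSC-CM and −0.02 against TLR-MSC-CM. At an unadjusted p under 0.05, 1 was higher against resting (4.76% of all genes tested had such a p). Against TLR-MSC-CM, 1 was higher and 5 were lower (6.6% of all genes tested had such a p, and 3.82% were lower).

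NR4A1, an immediate early gene induced by T cell receptor signals whose product binds FOXP3 regulatory elements, had the smallest p. It was at 8.77, 5.72 and 6.56 CPM with STING-MSC-CM of PC, ORC and AG1 and at 11.7, 12.2 and 17.5 CPM with TLR-MSC-CM, without overlap (log2 fold change −0.93, SE 0.20, edgeR adjusted p = 0.555, or 0.0243 with the donor block and 0.0509 with the block but without the AG1 library). With resting MSC-CM it was at 7.10 to 9.96 CPM, overlapping STING-MSC-CM. With the block, REL, the NF-κB subunit needed for FOXP3 induction, was lower (−0.51, edgeR adjusted p = 0.0438) and TGFBR1, the type I TGF-β receptor, higher (0.42, edgeR adjusted p = 0.0364) with STING-MSC-CM than with TLR-MSC-CM, and without the AG1 library neither passed (0.103 and 0.0836). IL2RB, the IL-2 receptor β chain, was at −0.33 (SE 0.12) without passing either test. In the comparison with resting MSC-CM, where TGFBR1 was at 0.28 (SE 0.11), no upstream gene passed with the block.

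Of 18 protein partners of FOXP3, 0 passed the adjusted unblocked test, and the median log2 fold change was −0.02 against both resting and TLR-MSC-CM. At an unadjusted p under 0.05, 1 was lower against resting (2.47% of all genes tested were) and 4 were lower against TLR-MSC-CM (3.82% of all genes tested were). GATA3, a transcription factor of type 2 helper T cells that regulatory T cells also use, was at 31.6 to 36.7 CPM with STING-MSC-CM, 34.8 to 39.1 CPM with resting MSC-CM and 40.5 to 65.0 CPM with TLR-MSC-CM (STING against TLR −0.56, SE 0.14, edgeR adjusted p = 0.611, or 0.0391 with the donor block). Without the AG1 library the value was −0.40 (SE 0.12), and the edgeR adjusted p with the block was 0.113. The histone methyltransferase EZH2, the deacetylase HDAC7 and the acetyltransferase KAT5 were at −0.40 (SE 0.12), −0.32 (SE 0.12) and −0.23 (SE 0.09) in that comparison.

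T cell markers were compared in the same libraries, because the cultures held T cell RNA. In bulk samples, fewer cells of a type and less RNA per cell cannot be told apart. Of 21 T cell markers in the table, 0 had an unadjusted p under 0.05 between STING-MSC-CM and resting MSC-CM (4.76% of all genes tested did). The median of the markers was −0.13 on the log2 scale. Against TLR-MSC-CM, 9 of 21 were lower at an unadjusted p under 0.05 (3.82% of all genes tested were), with a median of −0.34. Without the AG1 library with TLR-MSC-CM, which held a marker sum of 1701 CPM against 1154 CPM for ORC and 1151 CPM for PC, 4 of 21 were lower and the median was −0.13 (4.07% of all genes tested then had an unadjusted p under 0.05). With the donor block, 1 of 21 was lower in that comparison (CD5, −0.46, edgeR adjusted p = 0.0438, or 0.150 without that library). With the block, 4 of 19 macrophage markers were higher (ADGRE1, CD163, MERTK and MRC1), where 2.23% of all genes tested passed. Without that library 1 was higher, MERTK (0.62, edgeR adjusted p = 0.0384), where 1.12% of all genes tested passed. Against resting MSC-CM, 0 of 19 macrophage markers and 0 of 21 T cell markers passed with the block (0.531% of all genes tested did). Of 10 stromal markers, 1, THY1, was lower with STING-MSC-CM than with TLR-MSC-CM under the block (−1.02, edgeR adjusted p = 0.0402). Without the AG1 library, 1 of the 10 passed under the block. The 21 T cell markers summed to 909 to 1239.7 CPM with STING-MSC-CM, 1019.7 to 1291 CPM with resting MSC-CM and 1151 to 1701 CPM with TLR-MSC-CM. Of the defining markers CD3D, CD3E, CD3G, CD2, CD5 and LCK, none was at 0 in any macrophage library, whereas IL7R, an IL-7 receptor chain, was at 0 to 0.141 CPM.

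CD3E was at 60.4 to 72.1 CPM with STING-MSC-CM, 67.3 to 82.0 CPM with resting MSC-CM and 70.1 to 134 CPM with TLR-MSC-CM, where the second highest value was 84.2 CPM. Its log2 fold change for STING-MSC-CM was −0.20 (SE 0.18) against resting and −0.46 (SE 0.18) against TLR-MSC-CM, or −0.17 (SE 0.12) without the AG1 library. Against resting MSC-CM, LCK was at −0.04 (SE 0.13), CD2 at −0.10 (SE 0.15), CD3D at 0.05 (SE 0.16), CD3G at −0.16 (SE 0.14) and CD5 at −0.20 (SE 0.13).

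Scaled to T cell RNA, the order of the groups was the same for STING-MSC-CM and closer for the others. FOXP3 counts per 100 CD3 counts were 3.75 to 6.10 with STING-MSC-CM, 8.23 to 12.5 with resting MSC-CM and 9.28 to 11.3 with TLR-MSC-CM. They were 4.70 with no addition and 4.71 with cytokines only. The STING-MSC-CM libraries stayed below the 6 others without overlap. Their log2 difference from resting MSC-CM was −1.04, and that from TLR-MSC-CM was −1.14 in place of −1.50. The numerator is the FOXP3 count by which the gene was chosen, so the lower ratio with STING-MSC-CM is no independent result. TLR-MSC-CM of AG1, the highest library by CPM, was the lowest of its group on this scale. Which cells of the cultures held the FOXP3 RNA was not tested.

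**Figure D4:**
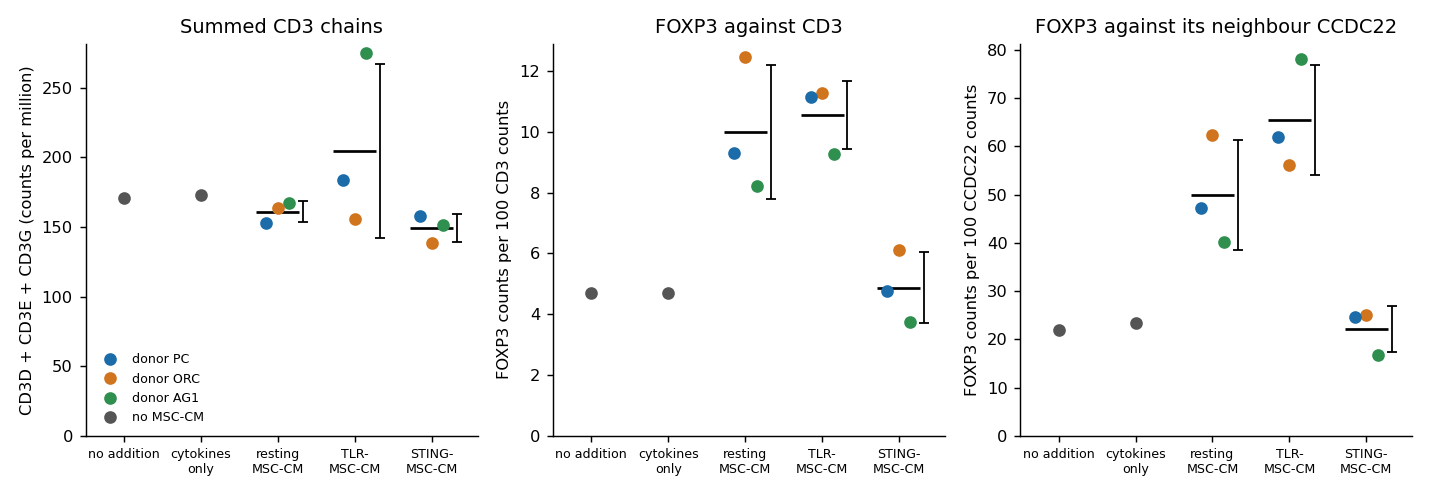
Summed CD3D, CD3E and CD3G in CPM (left), FOXP3 counts per 100 CD3 counts (middle) and FOXP3 counts per 100 CCDC22 counts (right) on the y axes, for each macrophage library by condition (x axes), coloured by MSC donor, with horizontal bars for means and capped bars for ± 1 SD of 3 libraries. CD3 overlaps between STING-MSC-CM (138 to 158 CPM) and resting MSC-CM (153 to 167 CPM), while both FOXP3 ratios are lower with STING-MSC-CM without overlap. Both ratios hold the FOXP3 count by which the gene was chosen.

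The genes whose pattern was most like that of FOXP3 were found by Pearson's r of log2(CPM + 0.5) over the 11 macrophage libraries among 11534 other genes with a mean of at least 1 CPM. These libraries share the macrophage donor and, in groups, the CM, and no p is given. MS4A7, a membrane protein gene of monocytes and macrophages, came first (r = 0.954). It was at 72.9 to 78.7 CPM with STING-MSC-CM, 112 to 125 CPM with resting MSC-CM, 109 to 149 CPM with TLR-MSC-CM, 73.8 CPM with no addition and 84.2 CPM with cytokines only. This likeness is how it was chosen. Outside macrophages it was at no more than 0.0316 CPM.

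RBFOX2, a splicing factor (r = 0.934), GPR176, an orphan receptor (0.919), DUSP4, a phosphatase of MAP kinases (0.908), and EIF2AK4, the amino acid sensing kinase GCN2 (0.901), followed. DUSP4 was at 67.3 to 73.3 CPM with STING-MSC-CM, 96.5 to 112 CPM with resting MSC-CM and 113 to 162 CPM with TLR-MSC-CM. The most opposite patterns were those of JAML, an adhesion molecule of leukocytes (r = −0.908), SLC8B1, a mitochondrial calcium exchanger (−0.892), TESK1 (−0.872), GPCPD1 (−0.870) and OLFM1 (−0.864). JAML was at 63.4 to 69.3 CPM with STING-MSC-CM and 47.6 to 55.3 CPM with the other CM. Of the 20 T cell markers compared, 19 had an r above 0, from −0.546 for CD8A to 0.830 for ZAP70 with a median of 0.508, and CD3E was at 0.491, CD3G at 0.661 and CD5 at 0.742. Of 19 macrophage markers, 3 had an r above 0, with a median of −0.390. An r above 0 was common over all genes, since MARCO, at 0.0026, ranked 7061 of 11534. It was also found for 19 of 23 regulatory T cell genes, 26 of 33 upstream regulators and 14 of 18 protein partners. Among other markers, 8 of 9 of natural killer cells and 2 of 5 of B cells had an r above 0.

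Over the 19 condition means of all 4 cell types, the closest genes were SIGLEC15 (r = 0.991), PSEN2 (0.990), ZDHHC18 (0.989), SPTBN4 (0.989) and ANKRD34B (0.989), all of which were high in macrophages. SIGLEC15, a sialic acid receptor of osteoclasts and macrophages, was at 16.2 to 19.5 CPM with STING-MSC-CM, 26.5 to 33.03 CPM with resting MSC-CM and 29.0 to 41.7 CPM with TLR-MSC-CM. Without CM it was at 16.3 CPM (no addition) and 16.6 CPM (cytokines only).

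**Figure D5:**
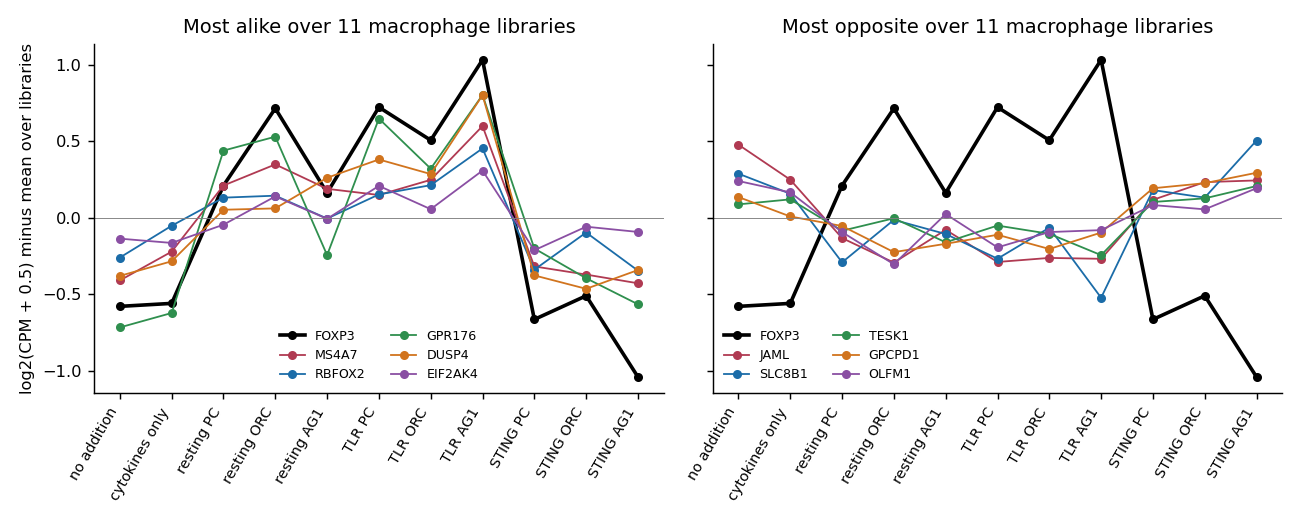
Log2(CPM + 0.5) minus the gene's mean over the 11 libraries (y axes) for FOXP3 (black) and the 5 genes with the highest (left) or lowest (right) Pearson's r with it, in each macrophage library (x axes; the lines only join points of a gene). MS4A7 (r = 0.954) is low in the libraries without CM and with STING-MSC-CM as FOXP3 is, and JAML (r = −0.908) is high in them.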

How the data were processed

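RNA of 45 libraries was sequenced. Per the submitters' processing notes and the methods, the authors used cutadapt 1.12 for trimming, STAR for alignment (EquCab3.0) and HTSeq 0.11.0 for counting, and retained protein coding genes. The deposited values are these raw counts, with no normalization. Values of at least 1000000 (41 in 6 genes, FOXP3 not among them) are rounded to 3 digits in the files. CPM was computed from each library's total. The replicated conditions of each cell type entered a separate edgeR 4.0.16 model (TMM, quasi-likelihood test, R 4.3.3) without a donor term, on genes totalling 10 counts or more. Cell types were compared in one model over the 9 resting MSC-CM libraries, and CpG in one over all 12 MSC libraries. P-values were adjusted by Benjamini-Hochberg over all genes tested, with a threshold of 0.05. Standard errors are the log2 fold change divided by the root of the F statistic. The fit was tested on simulated data.

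FOXP3 and the lists (10 lists of 157 genes, 152 in the tables) were chosen with earlier results of these data known. Named genes are the FOXP family, the locus neighbours, of each other list up to 4 genes with the smallest p per comparison where none passed, defining T cell markers and the 5 genes most and least like FOXP3, beside genes passing with the donor block. Same-donor libraries had a median correlation of deviations of 0.374 in macrophages (0.287 to 0.506 over 9 pairs), 0.0417 in synoviocytes, 0.622 in chondrocytes and 0.813 in MSC. Libraries with the same donor name were taken to use MSC of the same horse. Alternatives were other size factors, filters, DESeq2 1.42.0, the donor block, each library left out, one fit over joint cells and another prior count; scaling to CD3 and leaving the AG1 library out of the block and of the T cell marker counts were chosen after seeing the data. Permutation tests used scipy 1.17.1. No sequence is shown.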

Additional observations from a re-analysis of the deposited data

Results flagged for a closer look

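FOXP3 was lower in CPM with STING-MSC-CM than with resting MSC-CM in all 3 MSC donors in macrophages, the direction by which it was chosen. In synoviocytes it was higher in all 3, on few counts. The log2 ratios ran from −1.27 to −0.92 in macrophages, on 151 to 555 counts a library, and from 0.20 to 0.94 in synoviocytes, on 3 to 13 counts. Synoviocyte counts with STING-MSC-CM and resting MSC-CM were 11 and 10 for PC, 13 and 12 for ORC and 8 and 3 for AG1. The difference between the cell types was not tested, since FOXP3 was chosen by its values in macrophages. In synoviocytes the fitted value changed sign when the resting MSC-CM library of AG1 (3 counts) was left out, at −0.15.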

How the results depend on the processing

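Under the 42 alternatives run for FOXP3 in macrophages, the value moved beyond the spread of replicates (0.29 on the log2 scale) once, to −1.14 for STING-MSC-CM against TLR-MSC-CM when scaled to CD3 counts; its direction against resting and TLR-MSC-CM was fixed by the choice of the gene and is no sign of stability. Leaving out 1 library gave −1.31 to −0.96 against resting MSC-CM. The higher level in macrophages than in synoviocytes and chondrocytes passed under all 22 alternatives. All of them use macrophage libraries by which the gene was chosen. The counts of genes called depended on the model, and why was not tested. With DESeq2, 0 became 5 against resting and 33 against TLR-MSC-CM (1 of 33 upstream regulators, NR4A1, where 0.219% of all genes were called). With the replicate block on MSC donor, 0 became 80 and 336. Against TLR-MSC-CM the block called 3 of 26 regulatory T cell genes, 3 of 33 upstream regulators and 1 of 18 partners (2.23% of all genes). ENTPD1 and TGFBR1 were higher, and CTLA4, IRF4, NR4A1, REL and GATA3 lower. It also called 4 of 19 macrophage markers, 1 of 21 T cell markers and 1 of 10 stromal markers. With the block and without the TLR-MSC-CM library of AG1, 166 genes (1.12%) were called against TLR-MSC-CM and 1 between TLR-MSC-CM and resting. The 166 held 1 regulatory T cell gene (ENTPD1), 1 macrophage marker (MERTK), 1 stromal marker, 0 upstream regulators and 0 protein partners. Without that library 4 in place of 9 T cell markers were lower against TLR-MSC-CM, and 0 in place of 1 was higher against resting. The median of the regulatory T cell genes ranged from −0.39 to −0.10 for STING-MSC-CM against TLR-MSC-CM and from 0.0053 to 0.21 for TLR-MSC-CM against resting when 1 library was left out.

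In the other cells FOXP3 had 1 to 30 counts a library, and the sign turned in 8 of 10 comparisons when 1 library was left out, with adjusted p-values of 0.515 to 1. The ranges were −0.15 to 0.66 for STING-MSC-CM against resting in synoviocytes, and in chondrocytes −0.62 to 0.19 for STING-MSC-CM against resting, −0.47 to 0.37 against TLR-MSC-CM and −0.70 to 0.16 for TLR-MSC-CM against resting. In MSC they were −0.49 to 0.33 for the STING agonist and −0.88 to 0.22 for the TLR3 agonist against untreated, −0.14 to 0.67 for STING against TLR3 and −0.34 to 0.60 for CpG. The low-count filter filterByExpr removed FOXP3 in chondrocytes, so that alternative gave no value there. The block changed no call for FOXP3 in these cells or between cell types.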
